A study of Mus musculus with 70 samples.

Results

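The medial amygdala (MeA) of mice selected for much (HAB) or little (LAB) anxiety in their behavior was compared on 10 two-colour MPIP24k cDNA arrays, chosen by the region given in the sample title out of 70 arrays in all. Both lines were selected from CD-1 (ICR) mice. The tissue came from 6 HAB and 6 LAB males, 10 weeks old and described as basal, that were killed days after a tail suspension test. Bilateral punches of 1 mm diameter, taken dorsolateral of the optic tract from bregma -1.16 mm to -1.56 mm, were pooled by line and amplified, and both pools were hybridized together on every array, with HAB labelled by Cy3 on 5 arrays and by Cy5 on the other 5. The same design was used for 6 other regions of these mice, namely the paraventricular nucleus (PVN), the basolateral (BLA) and central (CeA) amygdala, the nucleus accumbens (NAc), the cingulate cortex (Cg) and the supraoptic nucleus (SON). The 10 arrays repeated the hybridization of the same pair of pools, so that every spread and p-value given here is that of the hybridizations of these pools and not of the lines.

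The MeA receives pheromonal and olfactory information, in large part from the accessory olfactory bulb, and passes it to the hypothalamus and the bed nucleus of the stria terminalis. It takes part in social, reproductive and defensive behavior, and its neurons are known for receptors of sex steroids and, in males, for vasopressin cells. Whether selection for anxiety went along with other transcript levels in this region is the question of the comparison.

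Values are log2 of HAB over LAB after background correction, a loess smooth and centring of each print-tip block (spots printed by the same pin), averaged within each dye orientation and then over both. A positive value is higher in HAB. A probe was counted as higher or lower when its mean reached 1.3-fold and all 10 arrays had the same direction, and it was called present in a line on an array when it exceeded the empty spots of that array. In the HAB channel 45.2% to 86.9% of the probes were above the empty spots, and in the LAB channel 51.7% to 78.5%. The SD over arrays within an orientation had a median of 0.65 over all probes, against a median absolute line difference of 0.15. The dye component, which is the difference of the 2 orientation means divided by 2, was larger in size than the line difference for 58.7% of the probes. The means of the 2 orientations correlated at r = -0.30 over all probes, which share their arrays and spots.

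The markers listed for the MeA did not set it apart uniformly. Of 34 genes listed for MeA and social behaviour neurons 18 were measured. Of these, 4 had their highest level of the 7 regions in the MeA and 2 their lowest, whereas 9.21% of all 5882 gene symbols were highest and 8.42% were lowest there. The log2 intensity of endothelin converting enzyme-like 1 (Ecel1), one of the 4, over both channels ran from 8.56 to 9.48 over the MeA arrays, and the means of the other regions lay between 8.24 and 8.75. The vasopressin receptor gene Avpr1a, with 8.31, was barely above the NAc (8.28), and the prolactin receptor gene (Prlr) exceeded the empty spots on 4 arrays in HAB and on 5 in LAB. Lowest in the MeA were calretinin (Calb2), with 7.78 against 7.99 to 8.99 elsewhere, and tachykinin 2 (Tac2), with 7.89 against 8.19 to 9.50. The estrogen receptor gene (Esr1), with 9.65, lay inside the range of the other regions (8.89 to 10.18). The vasopressin gene (Avp) exceeded the empty spots on 1 array in HAB and on 3 in LAB, and the genes of aromatase (Cyp19a1) and of the oxytocin receptor (Oxtr) were not among the probes that could be matched. Markers of oligodendrocytes were 0.35 higher in the MeA than in the mean of the other regions at the median of 27 genes, beside 0.04 over all symbols. This did not single out the MeA, since the list median was 9.88 there and 10.17 in the SON. Of the 27 genes 3 were highest in the MeA and 1 was lowest. Astrocyte markers were 0.26 higher by the same measure, but their list median of 10.16 in the MeA lay below that of the PVN (10.20). Of the 25 genes 2 were highest in the MeA and 0 lowest. In punches fewer cells of a type and less RNA per cell cannot be told apart.

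Of 22824 probes 64 were higher in HAB (0.28%) and 70 were lower (0.307%), together 0.587%. They included 11 probes at least 2-fold higher and 7 at least 2-fold lower. The median absolute difference was 0.58 among the higher and 0.60 among the lower probes. Gene symbols were known for 91 counted probes of 81 genes, and 125 of the 134 counted probes were above the empty spots in their brighter line on at least 8 of 10 arrays. Among the 12119 probes with such signal, counted probes made up 1.03% (0.503% higher and 0.528% lower). The balance of directions depended on the print-tip step: 47.8% of the counted probes were higher in HAB with it, 65.9% (58 higher and 30 lower) with loess alone and 68.8% (64 and 29) with the median of each array alone. With limma over the 10 arrays 12 probes were higher (0.0526%) and 14 were lower (0.0613%) at an adjusted p under 0.05, 0.114% of all probes, and 25 of these 26 were also counted.

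**Figure D1:**
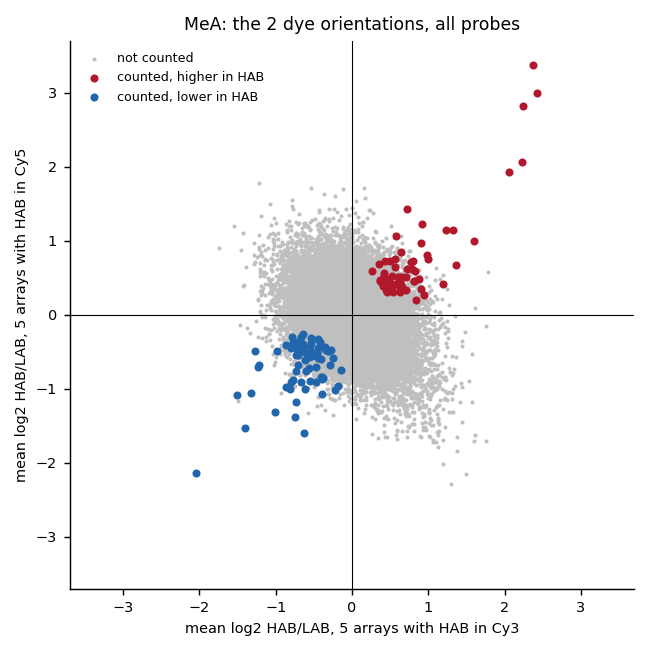
Mean log2 HAB/LAB of each probe over the 5 arrays with HAB in Cy3 (horizontal axis) and over the 5 arrays with HAB in Cy5 (vertical axis), with grey dots for probes not counted. The bulk of the probes lies along the falling diagonal (r = -0.30), while the 64 probes counted higher in HAB (red) and the 70 counted lower (blue) lie in the upper right and lower left corners.

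Among the transcripts higher in HAB, RAB6 (Rab6), a small GTPase of Golgi traffic, had the largest difference. Its brightest probe gave log2 ratios of 2.31, 1.59, 2.88, 2.43 and 2.62 with HAB in Cy3 and 3.62, 3.34, 3.35, 3.52 and 3.04 with HAB in Cy5. All arrays were thus far above 0 in both orientations, and the mean was 2.87 (SD 0.37 over 10 arrays within orientation), a 7.31-fold difference with a limma adjusted p of 6.03e-07. A second Rab6 probe rose by 2.52, whereas the third and the fourth probe of the gene, also present on at least 7 arrays in each line, stood at -0.32 and -0.10. Cellular nucleic acid binding protein (Cnbp), with a mean of 2.15, ranged from 1.43 to 2.57 with HAB in Cy3 and from 1.74 to 2.48 with HAB in Cy5, and its other probe stood at 0.26. The small ubiquitin-like modifier Sumo2 was higher by 1.99 with a wide spread of arrays (SD 0.88), and lost its count when the print-tip step was left out. These 3 genes also had means above 0 in all 6 other regions, where Rab6 ran from 0.94 (PVN) to 2.84 (NAc).

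Early growth response 1 (Egr1), an immediate early transcription factor that is induced by neuronal activity, was higher in HAB by 1.19. The arrays with HAB in Cy3 gave 1.27, 1.14, 1.24, 1.38 and 1.12, and those with HAB in Cy5 gave 1.12, 0.78, 1.16, 1.23 and 1.45. The orientation means of 1.23 and 1.15 differed less than the arrays within an orientation, and the 2.28-fold difference had an SD of 0.19, well under the median of all probes (limma adjusted p = 0.000915). The probe was above the empty spots on 10 of 10 arrays in both lines. A second, dim Egr1 probe, present on 3 arrays in HAB and on 7 in LAB, gave -0.33 with arrays on both sides of 0 (-1.50 to 1.59).

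The other genes with large positive differences serve varied functions. The mitochondrial protease gene Htra2 was higher by 1.30 (0.52 to 2.78 over the arrays), and the nuclear envelope protein gene Sun1 by 1.24 (0.51 to 2.20). The brighter Sun1 probe, in contrast, stood at -0.07. The F-box protein gene Fbxo3 and the gene of the microtubule-severing protein spastin (Spast) were each higher by 1.07, and Plekhf1, which encodes a protein of endosomes and lysosomes, by 1.02. Beta globin (Hbb-b1) was represented by 3 probes with means of 0.74, 0.93 and 0.58, of which only the second was positive on all 10 arrays. This call ended in the authors' table of normalized ratios, and the lowest of the 10 arrays stood at 0.02. The gene of the synaptic adhesion protein Cadm1 was higher by 0.90 (0.05 to 1.56) on 1 of 3 probes, with 0.27 and -0.15 on the others.

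Of the transcripts lower in HAB, the peroxisomal carrier gene Slc25a17 had the largest difference. Its values were -2.13, -1.39, -2.49, -2.52 and -1.67 with HAB in Cy3 and -1.98, -2.60, -1.42, -2.41 and -2.28 with HAB in Cy5. The mean of -2.09 (SD 0.48) was a 4.25-fold difference with a limma adjusted p of 2.96e-05. The second probe of the gene, present on all arrays, gave 0.11. In the other regions the first probe ran from -2.53 (SON) to -1.35 (BLA), so that the MeA lay inside their range. Girdin (Ccdc88a), an actin-binding protein, was lower on its brightest probe, with a mean of -1.47 and arrays between -2.01 and -0.87, while the other 3 probes stood at -0.16, 0.34 and 0.02.

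Metallothionein 1 (Mt1), a zinc-binding protein that responds to metals and glucocorticoids, was 2.46-fold lower in HAB. The values were -1.61, -1.18, -1.67, -1.53 and -1.57 with HAB in Cy3 and -1.48, -0.79, -1.50, -0.92 and -0.71 with HAB in Cy5. Although the arrays of the second orientation spread more widely, none came near 0, and the mean was -1.30 (SD 0.30, limma adjusted p = 0.000915). Mt2, the neighbouring family member, was not counted, with -0.13. A probe annotated as metallothionein-I activator was lower with a mean of -0.88 and arrays from -1.74 to -0.02, a call that ended in the authors' table. Of 5 measured genes of metallothioneins and zinc transport Mt1 was the only one counted, at a median of -0.23, beside 1.05% of all symbols counted by their brightest probe.

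Glyoxalase 1 (Glo1), which detoxifies methylglyoxal and has been discussed as a marker of these lines, was lower in HAB on 3 of 5 probes. The brightest probe had a mean of -0.40 (-0.59 to -0.04), the second of -0.73 (-1.46 to -0.21) and the third of -1.16 (-2.07 to -0.71). The remaining probes, with -0.09 and -0.61, were not counted. The probes thus differed in size but not in sign. The count of the brightest probe ended without the print-tip step and without the first array with HAB in Cy3, where its value was -0.37.

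The alpha subunit of the G protein Go (Gnao1) was lower in HAB on 1 of 4 probes, with -0.75, -0.78, -0.87, -0.79 and -0.58 in one orientation and -1.32, -1.59, -1.42, -1.23 and -1.38 in the other. The arrays agreed closely within an orientation (SD 0.12) and the mean was -1.07 (limma adjusted p = 0.0017), but the orientation means of -0.75 and -1.39 differed by more than the array spread. The brightest Gnao1 probe gave -0.21, with all arrays below 0 when HAB was in Cy3 and 4 of 5 above 0 when it was in Cy5. The NF-Y subunit gene Nfyc was lower, with a mean of -1.19 (SD 0.64), and was present in HAB on 5 arrays and in LAB on 10. The zinc finger gene Zfp672 (-1.12) and the gene 5230400G24Rik (-0.96) had little array spread within an orientation (SD 0.17 and 0.18) but differed between the orientations, with means of -0.63 and -1.60 for Zfp672 and of -0.74 and -1.19 for 5230400G24Rik. Both were also below 0 in all 6 other regions. The sterol sensor gene Insig1 was lower on 2 of 3 probes, with -0.83 and -0.95, and the peroxisomal import gene Pex13 was lower with -0.79 (-1.06 to -0.08).

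**Figure D2:**
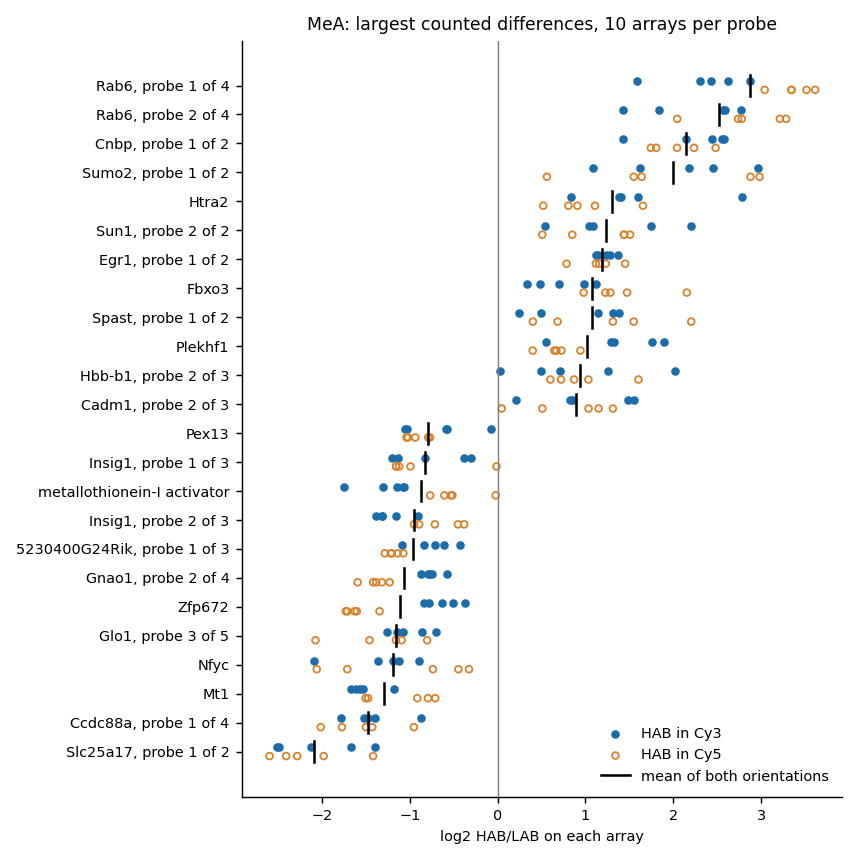
Log2 HAB/LAB on each of the 10 arrays for the 12 counted named probes with the largest positive and the 12 with the largest negative means, with filled dots for HAB in Cy3, open dots for HAB in Cy5 and a black line for the mean of both orientations. All dots of a probe lie on the same side of 0, the Egr1 probe spans 0.78 to 1.45, and Zfp672 and Gnao1 show separate clusters for the 2 orientations.

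Several genes are represented by more than 1 probe. In 9 genes at least 2 probes were counted, all in the same direction within a gene. Calm2, Hmgn3, Pgm2l1, Rab6 and Tspan2 were among the higher ones, and Glo1, Glul and Insig1 were lower. Pgm2l1 was listed here after its values were seen. Of 76 further probes of counted genes (44 symbols) that were above the empty spots but not counted themselves, 51 had the direction of the counted probe. Over all probes 49.7% had a mean above 0. The nucleosome-binding protein gene Hmgn3 was the most even of them, with 0.61 and 0.66 on its only probes. Calmodulin 2 (Calm2), the calcium sensor, had 0.47 and 0.44 on the counted probes and 0.06, 0.46 and 0.28 on the others.

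**Figure D3:**
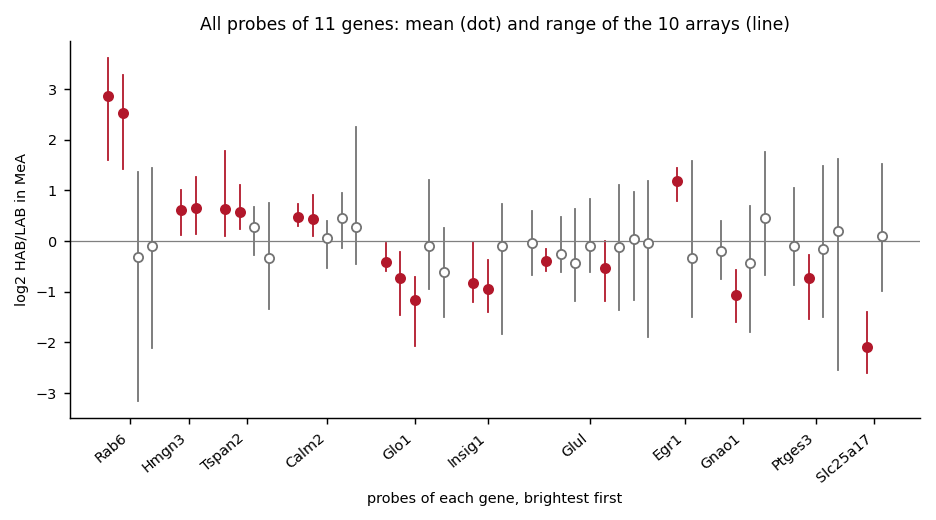
Mean log2 HAB/LAB (dot) and range of the 10 arrays (line) for every probe of 11 genes, brightest probe on the left of each gene, with filled red dots for counted probes. Both Hmgn3 probes lie above 0 on all arrays, while for Rab6, Egr1, Gnao1 and Slc25a17 probes of the same gene disagree.

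Of the genes listed for MeA neurons 10 were above the empty spots on at least 8 arrays in their brighter line. A gene that was not counted may still differ between the lines. Of the 18 measured members 1 was counted, against 1.05% of the 5882 symbols represented by their brightest probe (0.527% in each direction, and 1.38% by any probe), and the median was -0.09, beside -0.0024 over all symbols. The counted gene was tachykinin 1 (Tac1), the precursor of substance P. It gave -0.40, -0.57, -0.55, -0.33 and -0.41 with HAB in Cy3 and -0.13, -0.70, -0.78, -0.32 and -1.02 with HAB in Cy5, all below 0, with a mean of -0.52 (SD 0.27). The array-level limma test was not passed (adjusted p = 0.354), and the count ended with loess alone, print-tip loess, the array median alone and the authors' table. Esr1 had a mean of 0.30 in which the sign followed the dye: with HAB in Cy3 the arrays ran from 0.66 to 2.20, and with HAB in Cy5 from -0.84 to 0.06. Avpr1a had a mean of 0.01 (SD 0.60). None of the 21 measured genes of sex steroid receptors, synthesis and cofactors was counted (median 0.02).

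Among 28 measured neuropeptide and receptor genes Tac1 was again the only brightest probe counted, at a median of 0.04. The second, dimmer probe of proenkephalin (Penk), the precursor of enkephalins, was lower, with a mean of -0.57, arrays from -1.82 to -0.01 and presence in HAB on 3 arrays only. Its brighter probe gave -0.11. Neuropeptide Y (Npy) had 0.20 and was positive on 9 of 10 arrays. The genes of somatostatin (Sst), cholecystokinin (Cck) and neurotensin (Nts), with 0.01, 0.17 and 0.08, were not counted either. No gene was counted among 19 of the stress axis and corticosteroid response, 20 of GABA synthesis, transport and receptors, 24 of monoamine signalling or 27 of potassium, sodium and calcium channels, with medians of -0.02, -0.02, 0.02 and 0.11. As 1.05% of all symbols were counted by their brightest probe, a count of 0 does not set lists of this size apart.

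Of 30 measured immediate early genes Egr1 was the only one counted, beside 1.05% of all symbols by their brightest probe, at a median of -0.04. Fos, the best known of them, was above the empty spots on 1 array in HAB and on 3 in LAB, and its mean of 0.13 rests on dim signals. Members that were present in both lines on all 10 arrays were the MAP kinase phosphatase gene Dusp6 with 0.31, Klf2 with -0.17, Per1 with -0.01, Rgs2 with -0.10 and Trib1 with -0.02. Egr3 and Egr4, relatives of Egr1, had 0.14 and 0.13. The median moved to 0.13 when only the 11 members above the empty spots were kept.

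Most myelin genes had means above 0, but few were counted, beside 1.05% of all symbols by their brightest probe. Of 27 measured oligodendrocyte genes 19 had a mean above 0, beside 49.6% of all symbols, and the median was 0.10 (-0.01 to 0.39 over the arrays). Tetraspanin 2 (Tspan2), a membrane protein of oligodendrocytes, was counted on 2 of 4 probes, with means of 0.64 and 0.57. Its second probe gave 1.10, 0.58, 0.41, 0.48 and 0.56 with HAB in Cy3 and 0.56, 0.24, 0.64, 0.57 and 0.53 with HAB in Cy5. Myelin basic protein (Mbp), Mobp and Mog stood at 0.06, -0.02 and 0.03, and Mag at -0.19. No member was counted when the probes of a gene were averaged.

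Astrocyte genes were mixed. The brightest probes of Mt1 and of aldolase C (Aldoc), a glycolytic enzyme of astrocytes, were lower, and that of apolipoprotein E (Apoe) was higher, 3 of 25 measured genes at a median of -0.04, beside 1.05% of all symbols counted by their brightest probe. Aldoc ran from -1.06 to -0.21 with a mean of -0.59, and its other probes gave -0.29, -0.16 and 0.04. Apoe ran from 0.15 to 0.75 with a mean of 0.43. Dimmer probes of the glutamate transporter gene Slc1a3 (-0.62) and of glutamine synthetase (Glul, -0.39 and -0.54) were also lower, whereas their brightest probes stood at 0.04 and -0.04. Gfap, Aqp4, Slc1a2 and Gja1, common markers of astrocytes, were between -0.05 and 0.03, with a wide array spread for Gfap (SD 1.18). Other markers were lower, such as Aldh1l1 (-0.18), S100b (-0.20) and Ndrg2 (-0.31), and 10 of the 25 genes were above 0. With the probes of each gene averaged 1 astrocyte gene was counted.

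Markers of excitatory forebrain neurons had a median of 0.16 over 15 genes (11 above 0), those of inhibitory neurons -0.0061 over 14, of striatal and CeA type neurons -0.03 over 15 with Tac1 counted, and of hypothalamic neurons -0.04 over 13. Microglial markers had a median of -0.02 over 16 genes, those of endothelium, pericytes and meninges 0.07 over 31, and those of choroid plexus and ependyma 0.03 over 11, with no gene counted. With 1.05% of all symbols counted by their brightest probe, lists of this size can hold none. For blood, represented by 7 genes, the median was 0.03. The alpha globin probe (Hba-a1) stood at -0.09 and was dim, and the part of blood in the Hbb-b1 difference was not tested.

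In sterol metabolism the counted genes went in opposite directions. Lanosterol demethylase (Cyp51) was higher by 0.61, from 0.53 to 1.38 with HAB in Cy3 and from 0.04 to 0.50 with HAB in Cy5, and Apoe was higher as described. Insig1, whose product holds back sterol synthesis, was lower. Of 28 measured genes 19 were above 0 at a median of 0.08, and Hmgcs1, an early enzyme of the pathway, stood at 0.13. Ribosomal protein genes had a median of -0.12 over 72 genes, with 23 above 0, and 1 of the 72 was counted, as lower. Among 66 genes of oxidative phosphorylation and pyruvate dehydrogenase Ndufb8 was lower (-0.41), which ended with each other normalization, in the authors' table and without single arrays, and the median was -0.02. Synaptotagmin 11 (Syt11) was the only brightest probe counted among 36 genes of synaptic vesicle release, with 0.42, and a dimmer probe of synaptotagmin 4 (Syt4) was higher by 0.80. The other Syt4 probes stood at -0.08, 0.05 and 0.23. Lysosomal hydrolases, 34 genes, had no counted member and a median of -0.07. The counts of all these lists stand beside 1.05% of all symbols counted by their brightest probe.

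**Figure D4:**
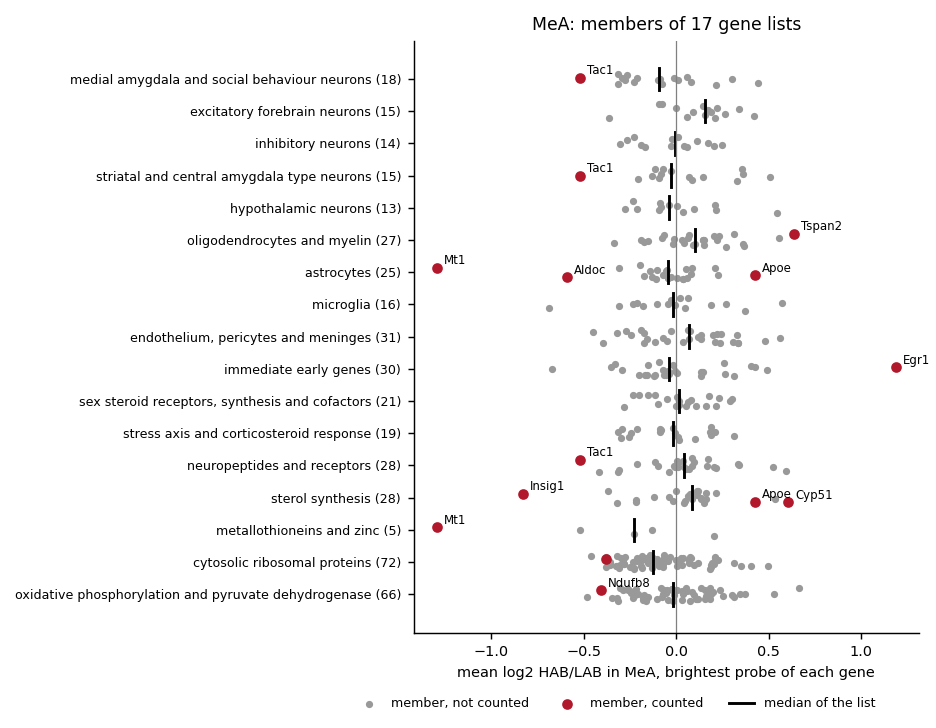
Mean log2 HAB/LAB in the MeA of each measured gene (dot, brightest probe) for the main gene lists, with the number of measured genes in brackets, counted genes in red, most with their names, and the list median as a black line. All list medians lie between -0.23 and 0.16, and single genes such as Egr1 and Mt1 stand far from the other members of their lists.

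Of a list of 33 genes gathered from the study's qPCR work 27 were measured here. That list was chosen in part on these arrays and is no independent evidence. In the MeA Rab6 and Hmgn3 were higher by their brightest probe, Slc25a17, Mt1, Zfp672 and 5230400G24Rik were lower, and dimmer probes of Hbb-b1 and Syt4 were higher. The matrix metalloproteinase gene Mmp15 had a mean of -1.33, with 9 of 10 arrays at -1.16 or below and 1 array at 0.54, and was therefore not counted although it passed limma (adjusted p = 0.0233). Ccdc104 stood at -0.66 with 8 of 10 arrays below 0. The cathepsin B gene (Ctsb) had -0.39 with 6 of 10 arrays below 0, a range of -2.40 to 0.89 and presence on 6 arrays in HAB and 7 in LAB. Abca2, Enpp5 and Ttbk1 had 0.09, -0.01 and 0.07, syntaxin 3 (Stx3) had -0.17 and transthyretin (Ttr) had -0.03. The medians of the 27 genes (-0.04) and of all symbols were both near 0.

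Whether a difference was particular to the MeA was tested with limma over the 70 arrays. The line difference in the MeA was higher than the mean of the other 6 regions for 30 probes (0.131%) and lower for 16 (0.0701%), 0.202% of all probes, at an adjusted p under 0.05 and at least 1.3-fold. Of the probes counted in the MeA, 13 of the 64 higher and 14 of the 70 lower ones had the same direction in all 6 other regions. The share of all probes with this property was not determined. By the limma contrast 17 of the 64 and 9 of the 70 were called apart. The counted probes were picked for their MeA values, which also enter this contrast. These tests weigh the hybridizations of 7 pairs of pools from the same mice.

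Egr1 was 0.81 higher in the MeA than in the other regions (SE 0.13, limma adjusted p = 0.000175). Its log2 HAB/LAB was 0.79 in the PVN, 0.70 in the Cg, 0.48 in the SON and 0.46 in the NAc, but -0.02 in the BLA and -0.11 in the CeA. Among the amygdala regions the MeA thus stood alone, and its difference exceeded that of the BLA by 1.20 (limma adjusted p = 1.31e-06) and that of the CeA by 1.30 (adjusted p = 1.04e-06). Rab6 differed by 0.92 (adjusted p = 0.00466), with the NAc at nearly the same value as the MeA. The MeA was also apart for the third Syt4 probe (0.80 in the MeA and -0.19 to 0.23 elsewhere), for Cadm1 (0.90 and -0.24 to 0.44), for the fourth Calm2 probe (0.46 and -0.56 to 0.04) and for the third probe of Camk2n1, an inhibitor of CaM kinase II (0.58 and -0.48 to 0.30). The calls of Cadm1 and Camk2n1 ended without the dye term and with the replicate block, and both were lost without single arrays, as was that of Syt4.

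Gnao1 was lower in the MeA than elsewhere (difference -1.17, SE 0.16, limma adjusted p = 1.28e-05). Outside the MeA the probe stood at -0.69 in the Cg and at 0.04 to 0.48 in the other 5 regions. Nfyc (difference -1.21, adjusted p = 0.00317) ran from -0.40 to 0.72 elsewhere, and Pex13 (-0.88, adjusted p = 0.000899) from -0.30 to 0.35. The co-chaperone gene Ptges3 had -0.73 in the MeA on its second probe and -0.39 to 0.44 elsewhere (difference -0.74, adjusted p = 0.000175), with the other probes at -0.11, -0.15 and 0.20 in the MeA. The noncoding transcript Meg3, on its second of 6 probes, had -0.62 in the MeA and 0.12 to 0.48 in the other regions (difference -0.83, adjusted p = 0.00551), and the phosphatase gene Dusp2 had -0.81 against -0.03 to 0.29 (difference -0.94, adjusted p = 0.0235), a call that ended without the dye term and without single arrays. Meg3 and Dusp2 were below 0 on 8 of 10 arrays and were not counted. Mt1 was below 0 in all regions, and the MeA lay below the other regions (difference -0.74, adjusted p = 0.00686).

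**Figure D5:**
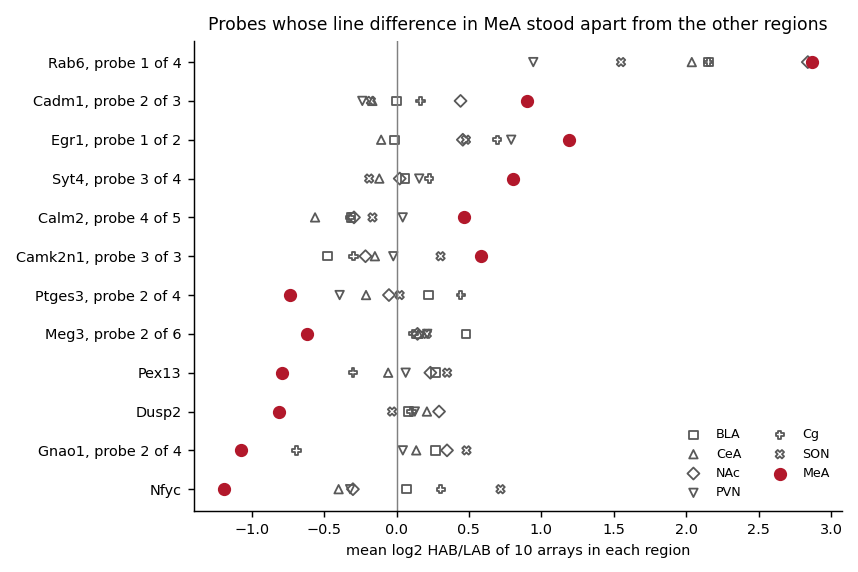
Mean log2 HAB/LAB of 10 arrays in the MeA (red) and in each of the 6 other regions (open symbols) for the 12 named probes called apart from the other regions. The MeA lies beyond all other regions in each row, and for Rab6 the NAc, at 2.84, nearly reaches the MeA at 2.87.

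Against the BLA, the line difference of 44 probes was higher (0.193%) and of 22 lower (0.0964%) in the MeA, 0.289% of all probes. Against the CeA it was higher for 321 (1.41%) and lower for 121 (0.53%), 1.94% in all, and without the dye term for 112 and 15. Of the 442 probes called with the dye term 43 were counted in the MeA, and in 121 the MeA mean was larger in size than that of the CeA. These contrasts share the MeA arrays. Tspan2 was 1.20 and 1.02 higher in the MeA than in the BLA on its 2 counted probes (limma adjusted p = 0.000853 and 0.00152), since the BLA stood at -0.56 and -0.45. The Mt1 difference between MeA and BLA was -1.14 (adjusted p = 0.000285), while against the CeA the difference of -0.64 did not pass (adjusted p = 0.0685). The Tac1 difference was -0.54 to the CeA (adjusted p = 0.0472) and -0.13 to the BLA (SE 0.16, adjusted p = 0.926). Calm2 was higher than in the CeA by 0.85 on its brightest probe (adjusted p = 0.000287). The largest contrasts with the BLA, those of Ttr and Enpp2, lay in the BLA itself, since their brightest probes stood at -0.03 and 0.14 in the MeA and at -1.79 and -1.49 in the BLA.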

How the data were processed

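The authors deposited the scanner's intensities per array, for each spot and its surroundings in both channels (QuantArray, fixed circle) and without normalization, and a table of log2 ratios per spot that they had normalized globally, by loess and by position and filtered to 9324 values per MeA array. The table's log2 ratios run as HAB over LAB (column medians -0.00098 to 0.0084) and served as an alternative. The intensities were background corrected with normexp (offset 50), smoothed by loess (span 0.4), centred in 48 print-tip blocks and turned to HAB over LAB according to the dyes in the labels, with R 4.3.3 and limma 3.58.1. The number of arrays, 10 per region, limits the precision for the pools only, and with a single pool per line the precision for the lines is not known.

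Probes above the median plus 2 median absolute deviations of the empty spots were taken as present. Array-level limma had a dye term (a dye term per region over 70 arrays) and Benjamini-Hochberg adjustment over 22824 probes. The script for these tests was tested on simulated data. Of these probes 8540 were paired with 5882 symbols by identifier or name. No positions or sequences are given. Gene lists are represented by the brightest probe of each gene and have no test of their own.

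Named were the 12 highest and 12 lowest counted probes that were present on at least 8 arrays and had a gene name (ESTs, unnamed clones and hypothetical or similar-to entries were not taken as names), up to 4 counted or 2 other members per list, the study's candidates, Egr1, Fos, Esr1, Avpr1a and Glo1, and the 6 largest contrasts with the other regions per direction. The text gives part of them, some genes are not reported here, and further list members were picked as well known examples. Members, lists and rules were chosen with earlier results of these data known. Alternatives were the background, the normalization, the authors' table, dim probes, single orientations, the count rule, the dye term, a replicate block and leaving out each array.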

Additional observations from a re-analysis of the deposited data

Results flagged for a closer look

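In 96 groups of 5 arrays of 1 orientation, over 48 named probes, 5 had an array far from the other arrays, where chance gives about 1 in 20 groups. For Esr1 1 array with HAB in Cy3 gave 2.20 against 0.66 to 0.93 on the others, and for Fos 1 array with HAB in Cy5 gave -1.61 against 0.50 to 1.15. For Hmgn3, on its brightest probe, 1 array with HAB in Cy3 gave 0.92 against 0.62 to 0.67. For Insig1, on its brightest probe, 1 array with HAB in Cy5 gave -0.014 against -1.16 to -0.99. For Mt1 1 array with HAB in Cy3 gave -1.18 against -1.67 to -1.53. The counts of Hmgn3, Insig1 and Mt1 include these arrays.

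The line difference of 12 named probes in the MeA differed from the mean of the other 6 regions by the contrast of limma. The contrasts above 0 were those of Rab6 (0.92), Cadm1 (0.89), Egr1 (0.81), Syt4 (0.78), Calm2 (0.73) and Camk2n1 (0.73). Below 0 were those of Nfyc (-1.21), Gnao1 (-1.17), Dusp2 (-0.94), Pex13 (-0.88), Meg3 (-0.83) and Ptges3 (-0.74). Of these genes Rab6 had the same direction in all regions, with the MeA at the largest value.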

How the results depend on the processing

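No called value changed its direction under any alternative that was run. With single orientations, left-out arrays, dim probes removed or another count rule the sign of a counted probe could not change. Its 10 arrays all had the same direction. Under the other backgrounds and normalizations, and in the authors' table where it had a value, none of the 134 counted probes had the opposite sign. Of these 55 were counted with loess alone, 57 with the array median alone, 99 with print-tip loess, 130 without background correction, 125 with an offset of 10 and 75 of the 103 that have a value in the authors' table. Counts higher and lower in HAB were 64 and 70. They were 58 and 30 (65.9% higher) with loess alone, 64 and 29 (68.8% higher) with the array median alone, 1290 and 1108 with HAB in Cy3 alone, 1241 and 1538 with HAB in Cy5 alone, 32 and 37 at 1.5-fold, 224 and 234 when 9 of 10 arrays sufficed, and 12 and 14 when limma decided. Without 1 array each they were 76 to 95 and 83 to 110, since fewer arrays had to agree.

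Array-level limma found 26 probes, 15 with the array median alone, 97 of 9321 in the authors' table and 16 to 23 without 1 array. Same-numbered arrays of the 2 orientations had correlations of their deviations from -0.05 to 0.04, and 1 of 5 arrays correlated best with its own number, so that the numbers do not pair the arrays. With the replicate block 9 probes passed. Against the other 6 regions the counts higher and lower in the MeA were 30 and 16, 9 and 6 without the dye term, 109 and 83 of 4180 in the authors' table, 15 to 26 and 9 to 17 without 1 array, and 14 and 11 with the replicate block. Against the BLA they were 44 and 22, 17 and 10 without the dye term, 111 and 88 in the authors' table, 34 to 47 and 16 to 20 without 1 array, and 19 and 11 with the replicate block. Against the CeA they were 321 and 121, 112 and 15 without the dye term, 426 and 221 in the authors' table, 265 to 305 and 79 to 130 without 1 array, and 208 and 68 with the replicate block. The cause of these changes was not tested.

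With all probes of a gene averaged, counted members became 0 for oligodendrocytes, immediate early genes, synaptic vesicle release and ribosomal proteins, and 1 for astrocytes, blood and sterol synthesis. The median of the immediate early genes was 0.13 with only probes above the empty spots. All 10 MeA arrays were scanned on 1 day, so that values within scan days could not be set side by side. The 70 arrays were scanned on 10 days in all. Contrasts and levels against the other regions therefore also compare scan days in part, and the share of the day was not tested. Among the probes of the contrasts with the other regions, Cadm1, Camk2n1, Dusp2 and Syt4 lost their call without single arrays. Cadm1, Camk2n1 and Dusp2 also lost it without the dye term, and Cadm1 and Camk2n1 with the replicate block. A single pool per line leaves the spread between mice unmeasured, and the values of Avp and Fos rest on few arrays above the empty spots.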
